A study of Mus musculus with 6 samples.

Results

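Coenzyme Q biosynthesis in the mouse was followed through 10 genes, Coq2, Coq3, Coq4, Coq5, Coq6, Coq7, Coq8a, Coq9, Coq10a and Coq10b, chosen by name among 18193 genes that have at least 1 probe set annotated to them alone on the array. These genes were read by 18 of the 34945 single-gene probe sets. The arrays compared quadriceps, a thigh muscle, of 3 transgenic and 3 wild-type mice, all male, 8 weeks old and labelled C57/BL6, with 1 array per animal. The transgene expressed ERRγ, the orphan nuclear receptor whose mouse gene is Esrrg, from a skeletal actin promoter, and such promoters work in muscle fibres and not in the vessels or connective tissue around them. The founder line and the parentage of the wild-type animals are not given in the labels, and both groups share the strain background with no further treatment. The design asks how muscle transcripts differ when this receptor is made at a high level in fibres.

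Coenzyme Q, or ubiquinone, is the lipid that carries electrons within the inner mitochondrial membrane from dehydrogenases, complexes I and II among them, to complex III. Its benzoquinone ring is built from 4-hydroxybenzoate and joined to a long isoprenoid tail made by the mevalonate pathway, and the ring is then hydroxylated, methylated and decarboxylated by a set of matrix enzymes that assemble into complex Q. Oxidative muscle is rich in coenzyme Q, and inherited defects in several of these genes cause muscle weakness, ataxia or kidney disease in humans.

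In transgenic quadriceps the largest difference among these genes was that of Coq8a, the atypical kinase of complex Q, with a 3.63-fold higher signal, followed by the ring hydroxylase Coq7 (1.85-fold), the C-methyltransferase Coq5 (1.64-fold) and the lipid-binding Coq10a (1.51-fold). Coq6, another ring hydroxylase, was 1.35-fold higher and passed only narrowly. Coq2, Coq3, Coq4, Coq9 and Coq10b did not pass. Each gene was represented by its brightest single-gene probe set, and its genotypes were compared with limma on log2(signal + 16), with Benjamini-Hochberg adjustment over all probe sets and a threshold of 0.05. By this test 5 of 10 genes rose and 0 fell. Over all 12529 genes tested, 7.65% rose and 5.75% fell. At an unadjusted p under 0.05, 7 were higher and 0 lower, beside 15.5% and 12.4% of all genes tested. The median difference of the 10 genes was 0.37 on the log2 scale, beside 0.03 over all genes tested. Between the genotypes the signals of 7 of the 10 genes did not overlap, with each transgenic array above each wild-type array, a pattern found in 18.6% of all genes tested, while the opposite pattern was found in 14.7%. All 10 brightest probe sets passed the filter on low values. Among all 18 probe sets, 16 were tested, of which 7 rose, 0 fell and 9 did not pass, where 6.38% of all probe sets rose and 5.16% fell.

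**Figure D1:**
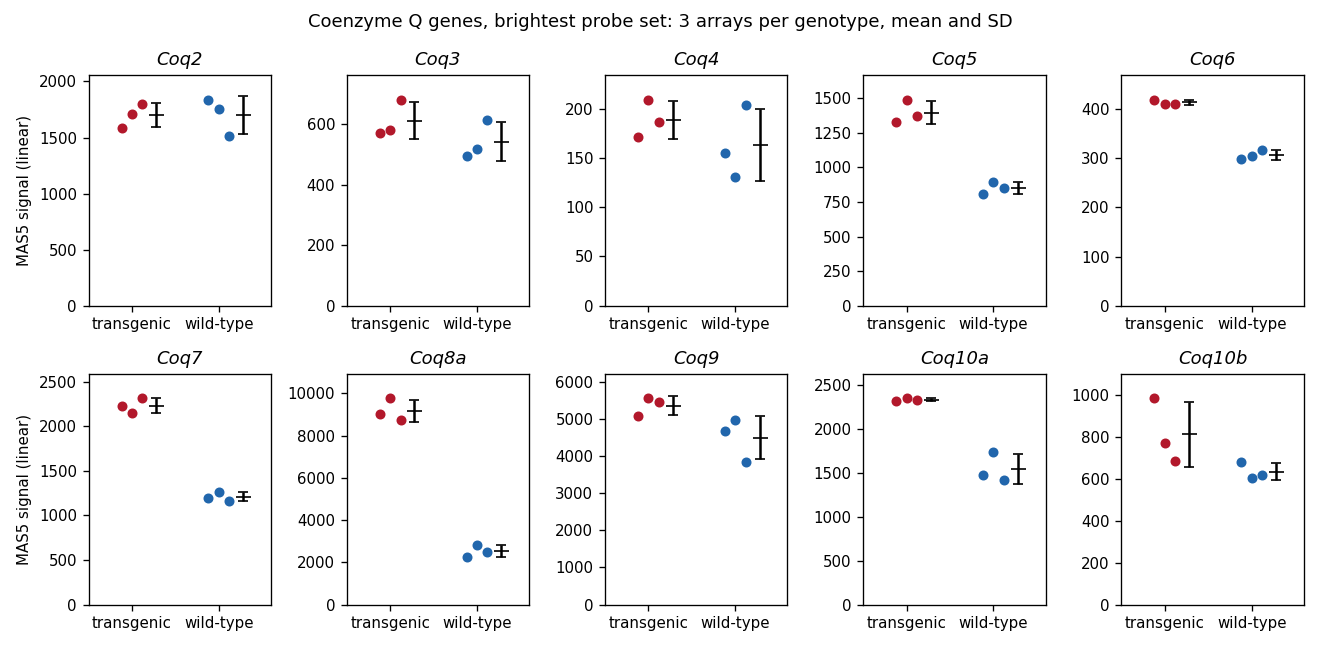
MAS5 signal on a linear scale (vertical axis, from 0) of the brightest probe set of each coenzyme Q gene, with 1 point per array, transgenic in red and wild-type in blue, and bars giving the mean and SD of 3 arrays. Coq8a lies at 8726 to 9763 in transgenic and 2266 to 2806 in wild-type muscle, while the Coq2 points overlap.

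The labels were checked with Esrrg, whose brightest probe set gave 13644 ± 876.6 in transgenic and 52.2 ± 24.9 in wild-type muscle (SD, n = 3 each), a log2 difference of 7.72. Its other probe sets, at 145.3 ± 38.5 and 53.3 ± 4.6 in transgenic and 104.9 ± 18.2 and 38.5 ± 1.6 in wild-type muscle, did not pass, and where they lie relative to the transgene is not known here. Signals were scaled by the authors so that each array has a trimmed mean of 200, and over all arrays the medians ran from 57.1 to 61.9 in transgenic and from 52.1 to 56.3 in wild-type muscle. Rescaling each array to a common median changed the share of probe set calls that were higher in transgenic muscle to 43.3%, against 55.2% as deposited. Muscle fibre markers (Acta1, Ckm, Tnnt3, Myh4, Atp2a1 and Pvalb), by their brightest probe sets, had summed signals of 110157 to 131649 in transgenic and 101513 to 131632 in wild-type muscle. Of these, 0 of 6 passed, also at an unadjusted p under 0.05. A dimmer Ckm probe set fell, with 2757 ± 319.4 in transgenic and 4088 ± 468.7 in wild-type muscle (SD, n = 3 each). Its log2 difference was -0.57 (limma adjusted p = 0.0129), while the dimmer Myh4 probe set did not pass. Endothelial markers differed with genotype, since 5 of 6 rose, where 7.65% of all genes tested rose and 5.75% fell. The remaining one, Tek, differed by 0.31 and did not pass (limma adjusted p = 0.234). The summed signal of the endothelial markers was 3254 to 3592 in transgenic and 1789 to 1923 in wild-type muscle. Adipocyte markers summed to 12706 to 17366 in transgenic and 11500.5 to 26419.5 in wild-type muscle, and the highest value was that of wild-type 3. Most of this sum was Fabp4, with means of 11089 in transgenic and 11024 in wild-type muscle. The median log2 difference of the adipocyte markers was -0.73, and Fabp4 alone was positive (0.05), while 0 of 5 passed. Of the fibroblast markers 0 of 5 passed, and 3 were lower at an unadjusted p under 0.05, beside 12.4% of all genes tested. Of 4 leukocyte markers tested 1, Lyz2, fell. Both summed signals were lower in transgenic muscle without overlap. Fibroblast markers summed to 20457 to 21640 in transgenic and 22535 to 26299 in wild-type muscle. Leukocyte markers, with Cd79a and Cd3e from below the filter included, summed to 977.4 to 1350.4 and 1440.4 to 1804.2. None of the markers for these cell types that were measured was at 0 on any array, which does not show that a cell type was detected. Markers of other organs, such as Umod (2.4 in wild-type 1), were not at 0 either. The part of these cell types in the differences described here was not tested. In whole muscle, fewer cells of a type and less RNA per cell cannot be told apart.

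Coq8a encodes an ATPase of the ADCK family, which in human and mouse is needed for a stable complex Q. Its brightest probe set (1417066_at) gave 9039, 9763 and 8726 in transgenic muscle, against 2266, 2806 and 2502 in wild-type muscle. The lowest transgenic array was thus far above the highest wild-type array. The means were 9176 ± 531.5 and 2525 ± 271.0 (SD, n = 3 each, transgenic and wild-type), and the log2 difference was 1.86 (SE 0.10, 95% interval 1.63 to 2.09, limma adjusted p = 5.82e-06). This placed Coq8a at rank 43 of 12529 genes ordered from the largest rise to the largest fall. The other Coq8a probe set gave 1307, 1077 and 1255 in transgenic and 224.1, 232.9 and 242.7 in wild-type muscle, a difference of 2.30 (SE 0.12, limma adjusted p = 3.78e-06). Both probe sets therefore separated the genotypes in the same direction, the dimmer one by a 5.20-fold ratio of means. Its suffix, _s_at, marks probes that can match transcripts of more than 1 gene.

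ERR receptors bind an extended half-site, and the stretches before the annotated starts of Coq8a, Coq7 and Coq10a, genes that rose, are shown so that matches can be read beside the measured differences. RefSeq promoter entries (GRCm38.p6) were found for 9 of the 10 genes (not for Coq5), with 12 annotated starts. The 250 bases before each start were searched on both strands for AGGTCA, the core half-site, for AAGGTCA, and for TNAAGGTCA, each longer motif containing the shorter ones. AGGTCA or its reverse complement lay before at least 1 start in 4 genes, Coq8a, Coq7, Coq10a and Coq4, where 15.8% of 27025 genes with an entry have it. AAGGTCA was found in Coq10a alone of the 9 and in 4.70% of all genes, and TNAAGGTCA in 0 of the 9 and in 1.30% of all genes. In the sequences below, read 5′ to 3′ on the strand of the gene and ending just before the annotated start, capitals mark AGGTCA or its reverse complement TGACCT. 
Coq8a, downstream start, chr1:180193486-180193735, strand minus: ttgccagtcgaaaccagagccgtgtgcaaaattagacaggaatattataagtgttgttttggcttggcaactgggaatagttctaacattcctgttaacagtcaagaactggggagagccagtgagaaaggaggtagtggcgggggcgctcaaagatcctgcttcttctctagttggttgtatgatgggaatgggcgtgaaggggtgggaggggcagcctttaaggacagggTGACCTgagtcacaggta
Coq8a, upstream start, chr1:180196021-180196270, strand minus: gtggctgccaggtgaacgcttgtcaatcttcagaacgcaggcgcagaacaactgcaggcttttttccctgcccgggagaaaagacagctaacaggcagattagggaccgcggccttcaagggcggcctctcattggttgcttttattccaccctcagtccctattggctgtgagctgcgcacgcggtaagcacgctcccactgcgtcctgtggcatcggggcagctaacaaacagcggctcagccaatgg
Coq7, chr7:118533357-118533606, strand minus: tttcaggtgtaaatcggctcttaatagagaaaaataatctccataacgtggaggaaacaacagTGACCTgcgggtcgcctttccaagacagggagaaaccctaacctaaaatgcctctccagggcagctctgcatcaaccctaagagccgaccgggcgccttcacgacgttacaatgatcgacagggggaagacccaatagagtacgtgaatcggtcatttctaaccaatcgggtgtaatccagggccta
Coq10a, upstream start, chr10:128370038-128370287, strand minus: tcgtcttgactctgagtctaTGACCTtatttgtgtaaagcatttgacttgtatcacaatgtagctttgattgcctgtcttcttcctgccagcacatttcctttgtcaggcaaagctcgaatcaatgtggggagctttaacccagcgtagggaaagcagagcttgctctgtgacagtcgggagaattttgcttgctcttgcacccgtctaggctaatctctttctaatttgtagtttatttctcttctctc
Coq10a, downstream start, chr10:128368981-128369230, strand minus: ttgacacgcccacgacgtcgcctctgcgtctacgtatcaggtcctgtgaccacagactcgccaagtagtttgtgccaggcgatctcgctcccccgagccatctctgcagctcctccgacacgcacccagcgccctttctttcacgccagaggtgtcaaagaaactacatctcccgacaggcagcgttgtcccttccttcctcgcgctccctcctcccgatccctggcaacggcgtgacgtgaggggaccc
In Coq8a the match begins 18 bases before the downstream start, and the upstream start has none in this window. The match begins 187 bases before the start of Coq7 and 230 bases before the upstream start of Coq10a, where the next base extends it to AAGGTCA on the opposite strand. Coq4 holds a match 52 bases before its start and did not pass the test, while Coq6 passed with no match, and the downstream start of Coq10a has none. These are letter matches and no measure of binding.

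The ring enzymes that add oxygen came next. Coq7 is the di-iron hydroxylase of the penultimate step, and its single probe set (1416665_at) gave 2229, 2151 and 2314 in transgenic muscle, against 1200, 1264 and 1164 in wild-type muscle. Replicates were close within each genotype, with coefficients of variation of 3.64% and 4.21% (transgenic and wild-type), and the genotypes were far apart. The log2 difference was 0.88 (SE 0.09, limma adjusted p = 0.000292). Coq6 is the flavin-dependent hydroxylase that acts earlier on the ring, and its single probe set (1426902_at) gave 418.9, 410.1 and 409.9 in transgenic muscle, against 297.5, 304.8 and 317.0 in wild-type muscle. The groups did not overlap, and the log2 difference was 0.41 (SE 0.12, limma adjusted p = 0.0434). This call ended whenever any 1 array was left out (adjusted p 0.0507 without wild-type 3 to 0.145 without wild-type 1), at a difference that stayed between 0.39 and 0.44.

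Methyl groups are added to the ring by Coq5, at a carbon, and by Coq3, at the hydroxyl groups. Coq5 gave 1328, 1492 and 1372 in transgenic muscle at its brightest probe set (1417264_at), against 806.5, 895.4 and 852.2 in wild-type muscle. No transgenic array came near the wild-type range, and the log2 difference was 0.70 (SE 0.10, limma adjusted p = 0.00166). The other Coq5 probe set, also of the _s_at kind, gave 1081 ± 120.7 in transgenic and 710.3 ± 16.8 in wild-type muscle (SD, n = 3 each), a log2 difference of 0.59 (SE 0.11, limma adjusted p = 0.00758). Coq3 gave 572.1, 581.9 and 681.2 in transgenic muscle at its brightest probe set (1436351_at), against 494.4, 516.4 and 614.9 in wild-type muscle. These ranges overlap, since wild-type 3 lies above a pair of the transgenic arrays, and the difference of 0.17 did not pass (95% interval -0.11 to 0.46, limma adjusted p = 0.443). The Coq3 difference was 0.0941 without transgenic 3, 0.11 without wild-type 1 and 0.26 without wild-type 3. The dim Coq3 probe set, with 73.0 ± 23.7 in transgenic and 54.5 ± 9.2 in wild-type muscle (SD, n = 3 each), did not pass either.

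**Figure D2:**
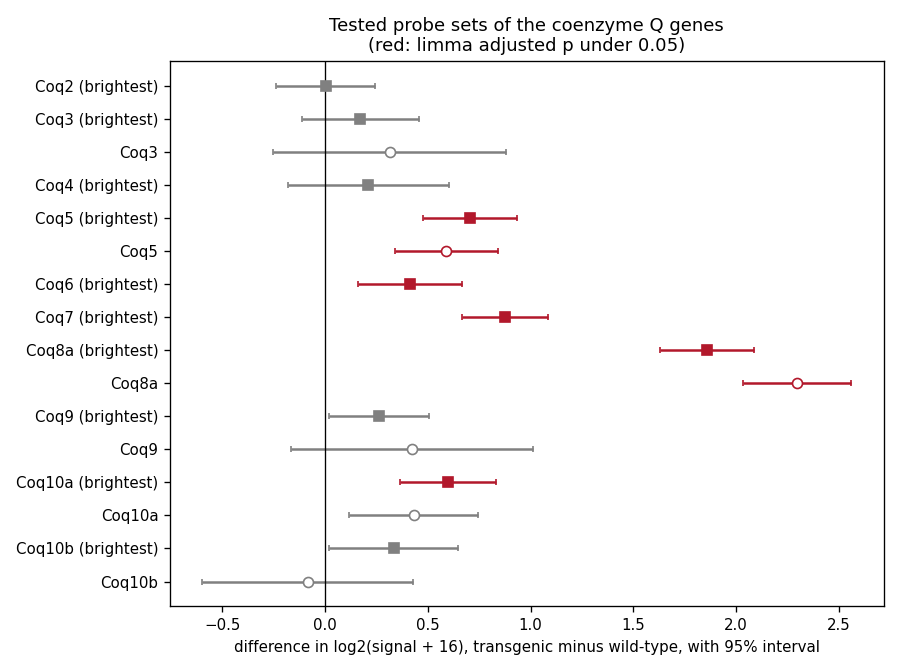
Difference in log2(signal + 16), transgenic minus wild-type, on the horizontal axis, with its 95% interval, for the 16 tested probe sets of the coenzyme Q genes. Squares are the brightest probe set of each gene, open circles the others, and red marks an adjusted p under 0.05. Both Coq8a probe sets lie furthest right, at 1.86 and 2.30.

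Coq2 is the prenyltransferase of the inner membrane that joins the isoprenoid tail to the ring. Its single probe set (1452791_at) gave 1588, 1709 and 1802 in transgenic muscle, against 1839, 1751 and 1510 in wild-type muscle. The ranges overlap almost wholly and the means were 1700 ± 107.4 in transgenic and 1700 ± 170.6 in wild-type muscle (SD, n = 3 each). Its log2 difference was 0.00 (95% interval -0.24 to 0.24, limma adjusted p = 0.989), so that a change larger than this interval was not seen while a smaller one could have been missed.

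Coq4 and Coq9 are parts of complex Q. Coq4 is needed for the assembly of the complex, and Coq9 is a lipid-binding protein that partners with Coq7. Coq4 (1435231_at) gave 170.9, 209.1 and 186.4 in transgenic muscle, against 154.4, 131.0 and 203.4 in wild-type muscle. It varied most among the wild-type arrays, with a coefficient of variation of 22.7%, and its difference of 0.21 did not pass (95% interval -0.18 to 0.60, limma adjusted p = 0.50). That difference was 0.0788 without wild-type 2, 0.14 without transgenic 2 and 0.37 without wild-type 3. Coq9 gave 5071, 5558 and 5464 in transgenic muscle at its brightest probe set (1428134_at), against 4670, 4968 and 3847 in wild-type muscle. The groups did not overlap, but the nearest arrays were close beside the wild-type SD of 580.7, and the difference of 0.26 did not pass (95% interval 0.02 to 0.50, limma adjusted p = 0.164). With 1 array left out the difference of Coq9 ran from 0.15 (without wild-type 3) to 0.34 (without wild-type 2). The dim Coq9 probe set gave 61.3 ± 8.5 in transgenic and 42.3 ± 11.7 in wild-type muscle (SD, n = 3 each). It differed by 0.42 and did not pass (limma adjusted p = 0.359). With the Coq9 probe sets averaged the difference was 0.34 (limma adjusted p = 0.0906). Beside Coq7, which differed by 0.88, its partner Coq9 gave a smaller difference at each of its probe sets. The difference between these differences was not tested.

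Coq10a and Coq10b are paralogues with a lipid-binding START-like domain. Their yeast relative, Coq10, is not an enzyme of the pathway but is needed for coenzyme Q to work in respiration. Coq10a gave 2321, 2353 and 2339 in transgenic muscle at its brightest probe set (1433628_at), against 1475, 1743 and 1420 in wild-type muscle. The transgenic arrays agreed closely, with an SD of 15.9 beside 172.7 in wild-type muscle, and the groups were separate. The log2 difference was 0.60 (SE 0.10, limma adjusted p = 0.00463). A second Coq10a probe set gave 224.4 ± 1.7 in transgenic and 163.0 ± 18.7 in wild-type muscle (SD, n = 3 each), a difference of 0.43 that did not pass (limma adjusted p = 0.0777). The remaining pair of Coq10a probe sets, with mean signals of 28.1 and 18.8, was below the filter and not tested. Of these, the first gave 45.8, 42.1 and 40.2 in transgenic and 26.5, 12.4 and 1.6 in wild-type muscle, and the second overlapped between the genotypes.

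Coq10b gave 983.2, 768.1 and 682.4 in transgenic muscle at its brightest probe set (1460510_a_at), against 680.1, 605.7 and 617.0 in wild-type muscle. Transgenic 1 is high here and transgenic 3 almost touches wild-type 1, and the difference of 0.33 did not pass (95% interval 0.02 to 0.64, limma adjusted p = 0.167). It was 0.19 without transgenic 1 and 0.12 with the Coq10b probe sets averaged. Its other probe set gave 368.6, 232.2 and 171.1 in transgenic and 285.9, 223.7 and 278.1 in wild-type muscle, a difference of -0.08 that did not pass, so the direction is not settled between the Coq10b probe sets. The Coq10a difference exceeded that of Coq10b by 0.26, with an exact two-sided permutation test over the 6 arrays giving p = 0.2 (smallest possible value 0.1). The same comparison of Coq8a with its paralogue Coq8b gave 0.83 (exact permutation p = 0.1), and both exact p are 0.2 after adjustment over these 2 pairs, which were chosen after their values were seen. Coq8b (93.8, 92.4 and 100.5 in transgenic and 15.6, 53.6 and 57.5 in wild-type muscle) did not itself pass (difference 1.03, SE 0.32, limma adjusted p = 0.0651). No transgenic array lay in the wild-type range of Coq8b, but wild-type 1 is close to the 16 units added before the log. Coq8b passed with 64 added in place of 16 (adjusted p = 0.0471) and when wild-type 3 was left out (0.0398), and missed the threshold in the other 14 of its 16 alternatives, with adjusted p up to 0.153. The Coq8b difference was 0.64 without wild-type 1 and 0.61 with 64 added, but 1.25 without wild-type 3 and 1.36 with 1 added. With 1 added, Coq8a differed by 1.87. The comparison of Coq8a with Coq8b was run with 16 added only.

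Processing choices did not touch the calls of Coq5, Coq7, Coq8a and Coq10a, which passed under all 17 alternatives run. Their differences ran from 0.64 to 0.74 for Coq5, from 0.81 to 0.92 for Coq7, from 1.78 to 2.08 for Coq8a and from 0.51 to 0.69 for Coq10a, and the highest adjusted p among them was 0.0484, for Coq10a. Coq6 missed the threshold in 10 of the 17. Coq2, Coq3, Coq4, Coq9 and Coq10b did not pass in any of them.

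**Figure D3:**
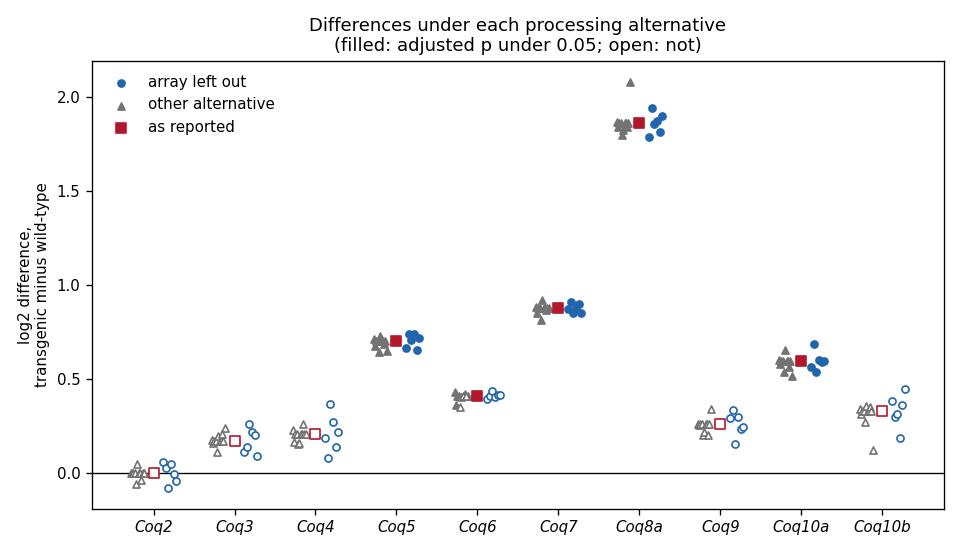
Log2 difference, transgenic minus wild-type, of each coenzyme Q gene (vertical axis) as reported (red square), with each array left out (blue circles) and under the other alternatives (grey triangles). Filled symbols have an adjusted p under 0.05. The Coq8a values stay between 1.78 and 2.08, and the Coq6 circles are all open.

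The genes that supply the isoprenoid tail gave no call. Of 10 listed, 7 had a tested single-gene probe set, and by limma 0 rose and 0 fell, with a median log2 difference of 0.17. Over all genes tested 7.65% rose and 5.75% fell. At an unadjusted p under 0.05, 2 were higher and 0 lower, where the shares over all genes were 15.5% and 12.4%. The smallest p belonged to Pdss2, a subunit of the synthase that builds the tail, with 578.8, 656.2 and 593.1 in transgenic muscle, against 456.3, 497.4 and 447.0 in wild-type muscle. Its groups were separate, yet the difference of 0.37 (SE 0.11) missed the threshold (limma adjusted p = 0.0619). With the filter at the 60th percentile and with probe sets averaged per gene, the adjusted p of Pdss2 was 0.0439 and 0.0328.

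Relatives of the Coq8a kinase and partner proteins were a list of 11 genes, of which 9 were tested. By limma 2 rose and 0 fell, beside 7.65% and 5.75% of all genes, while 4 were higher and 0 lower at an unadjusted p under 0.05, beside 15.5% and 12.4%. The median difference was 0.25. Stard7, a lipid transfer protein that in human cells is needed for coenzyme Q synthesis and its export from mitochondria, gave 4250, 3961 and 4100 in transgenic muscle, against 2078, 2125 and 1963 in wild-type muscle. These are ranges well apart, with a log2 difference of 0.99 (SE 0.09, limma adjusted p = 9.89e-05). Its dimmer probe set differed by 1.07 and did not pass (limma adjusted p = 0.0764). Fdx1, a mitochondrial ferredoxin of the kind that passes electrons to Coq6, gave 2011 ± 164.4 in transgenic and 1528 ± 55.5 in wild-type muscle (SD, n = 3 each), a difference of 0.39 (SE 0.10, limma adjusted p = 0.0305). The call of Fdx1 ended without wild-type 1, wild-type 2 or any 1 of the transgenic arrays, with adjusted p between 0.0580 and 0.111.

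Enzymes that hand electrons to coenzyme Q went both ways. All 12 listed genes were tested, of which 6 rose and 1 fell, and the other 5 missed the threshold. At an unadjusted p under 0.05, 6 were higher and 2 lower, beside 15.5% and 12.4% of all genes. The median difference was 0.28, where 13.4% of all genes tested passed in either direction. Etfdh, which delivers electrons from fatty acid and amino acid oxidation to coenzyme Q, gave 3434, 4108 and 3504 in transgenic muscle, against 1662, 1784 and 2183 in wild-type muscle. The log2 difference was 0.97 (SE 0.12, limma adjusted p = 0.000745). Its donors Etfa and Etfb, the subunits of electron transfer flavoprotein, differed by 0.68 and 0.78 (limma adjusted p = 0.00697 and 0.00559). With limma run without an intensity trend, both Etfa and Etfb missed the threshold (adjusted p = 0.0599 and 0.0525). Of complex II, Sdhb differed by 0.76 and Sdha by 0.39 (limma adjusted p = 0.000973 and 0.0202). The Sdha call ended without wild-type 1, wild-type 2 or transgenic 1 (adjusted p 0.0629 to 0.0975). It also ended with no filter on low values, quantile normalization or no intensity trend (adjusted p 0.0893 to 0.119). Sdhd rose by 0.37 at its brightest probe set (limma adjusted p = 0.0370), but its dimmer one did not pass. The Sdhc difference of 0.19 did not pass (limma adjusted p = 0.216). Dhodh did not pass at its brightest probe set (0.18), while its dimmer one rose by 0.57 (limma adjusted p = 0.0486).

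Gpd2 was the gene of this list that fell as tested here. Prodh, proline dehydrogenase, named after its values were seen, differed by -0.65 (limma adjusted p = 0.0655), and passed as lower with median scaling, quantile normalization, the replicate block or probe sets averaged (adjusted p 0.0456 to 0.0484). Gpd2 is the mitochondrial glycerol-3-phosphate dehydrogenase, which passes electrons from cytosolic NADH to coenzyme Q. Its brightest probe set gave 1721, 1867 and 1685 in transgenic muscle, against 4029, 3942 and 4061 in wild-type muscle. The transgenic values are all below the wild-type range, and the log2 difference was -1.18 (SE 0.09, limma adjusted p = 3.65e-05). A further pair of Gpd2 probe sets fell as well, at -1.33 and -1.06 (limma adjusted p = 3.33e-05 and 0.000581), and the dimmest, at 69.1 ± 22.1 in transgenic and 51.0 ± 25.4 in wild-type muscle (SD, n = 3 each), did not pass.

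**Figure D4:**
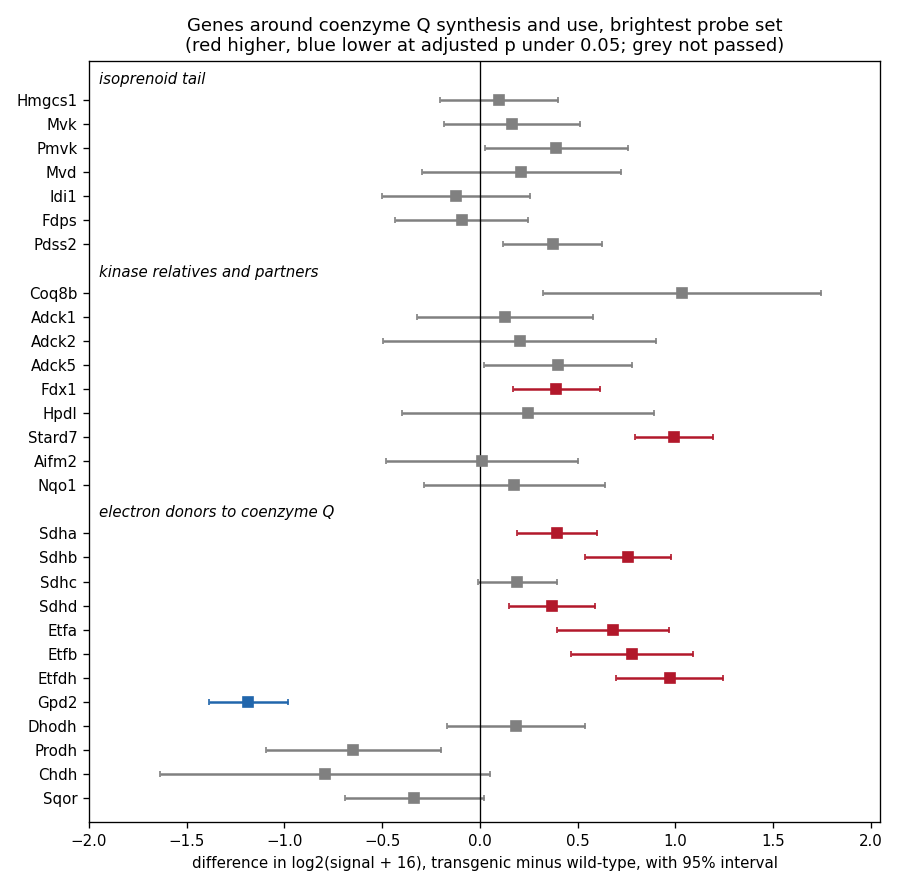
Difference in log2(signal + 16), transgenic minus wild-type, on the horizontal axis, with its 95% interval, for the brightest probe set of each tested gene of the tail synthesis, kinase relative and partner, and electron donor lists. Red marks genes that rose, blue the one that fell and grey those that did not pass. Gpd2 stands apart at -1.18, while Stard7 and Etfdh lie at 0.99 and 0.97.

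The genes whose log2 signals over the 6 arrays were most like those of Coq8a, by Pearson r, were Inpp5k (r = 0.999), Uqcrq (0.998), Paip2b (0.998), Homer2 (0.998) and Acot13 (0.997). All 5 rose in transgenic muscle, by between 0.63 (Inpp5k) and 2.45 (Homer2), with Uqcrq, a subunit of complex III, at 1.08. The 6 arrays fall into 2 genotypes, so that any gene with a clear rise scores high, and 943 of 12519 genes had an r above 0.9.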

How the data were processed

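The authors deposited 1 linear MAS5 signal intensity per probe set and array, as MAS5 is named in the submitters' processing notes. The MAS5 version is not given in the sources used here, and detection calls were not used. In the deposited table each array has a 2% trimmed mean of 200. Of 45101 probe sets, 64 controls were left out, and 26995 with a mean signal above the 40th percentile, 37.8, were tested as log2(signal + 16) with limma 3.58.1 in R 4.3.3 (lmFit, eBayes with an intensity trend, two-sided). The added 16 understates changes of dim probe sets. Fold values are ratios of mean signals. Genes were named from the platform annotation where it gives 1 symbol. Titles call the arrays biological replicates, and 3 per genotype limit the precision. On simulated arrays with 26995 probe sets, the test recovered 59 of 100 changed 2-fold and 98 of 100 changed 4-fold, and 13 of 170 calls were false. Only these probe sets were changed, with normal noise drawn once at spreads pulled toward their median. The measured arrays gave 3115 calls, so the cutoff differed and these shares need not hold for them.

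Named were the 10 genes and Esrrg, up to 6 called genes of each related list or its smallest p, and the 5 genes most like Coq8a. Sdhc, Sdhd and Dhodh were named besides, after their values were seen. The members and lists were chosen with earlier results of these data known. Lists are described by counts and medians, with no set test. Alternatives changed the filter, the added constant, the scaling, the eBayes model, weights per array, the replicate block and the averaging of probe sets, or left out each array in turn. The labels name no pairs, and same-numbered arrays had r from -0.08 to 0.07 over probe sets. The numbers were not treated as pairs, a question that these correlations cannot settle.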

Additional observations from a re-analysis of the deposited data

How the results depend on the processing

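Coenzyme Q genes that rose numbered 4 or 5 and those that fell 0 under all 17 alternatives, and probe sets that rose numbered 5 to 7. The replicate block gave 4 genes higher, with Coq6 lost (adjusted p = 0.0820), 2744 calls over all probe sets beside 3115, and 1 kinase relative or partner in place of 2. Same-numbered arrays correlated best with each other in number 1 (r = 0.07) and not in numbers 2 and 3. The labels name no pairs, and these correlations cannot settle whether the numbers mark them. The call of Coq6 also ended with median scaling (adjusted p = 0.0776), quantile normalization (0.0506) and no intensity trend (0.0892). The sign of Coq2 turned with median scaling (-0.0575) and array weights (-0.0355), and ran from -0.0794 to 0.0617 with 1 array left out. Kinase relatives and partners gave 1 call with median scaling or no intensity trend and 1 to 3 with an array left out. Tail genes gave 1 call with the filter at the 60th percentile or probe sets averaged. Among electron donors, Prodh also fell with median scaling, quantile normalization, the replicate block or probe sets averaged, for 2 lower in place of 1. This list gave 3 calls with no intensity trend, where calls over all probe sets were 1584, and 5 to 6 with an array left out. The cause was not tested. Without wild-type 1, wild-type 2 and wild-type 3, 1705, 1875 and 3301 probe sets passed, the last above the 3115 with all arrays. Without transgenic 1, transgenic 2 and transgenic 3, 1916, 2073 and 2329 passed. Signals under about 100 lie near the added 16 units and the background, which limits Coq8b and the dim probe sets of Coq3, Coq9 and Coq10a.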
